A study of Mus musculus with 14 samples.

Results

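Il10, Il19, Il10ra and Il10rb encode the cytokines interleukin-10 and interleukin-19 and both chains of the interleukin-10 receptor. They are 4 of the 15834 genes tested, and 5 of the 55634 probes on the arrays carry their RefSeq accessions, 2 of them for Il19. The genes were selected on their measured levels in all 4 groups, with results of these data already known. Differences of these 4 genes between groups are therefore given as a description, with a standard error (SE) and without a test.

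Expression was measured on 14 one-colour microarrays in macrophages that were differentiated with M-CSF for 1 week from marrow cells; the donors were C57BL/6 females aged 8 weeks. All groups carry LysM-Double-Cre, a recombinase driven from a gene of myeloid cells. The transgenic groups also carry the TFEB transgene (transgene+), and the wild-type groups are the same Cre mice without it (transgene-), so every comparison is made against Cre-bearing cells. TFEB is a transcription factor of lysosome and autophagy genes. For 24 h the cells were kept in DMEM alone (control) or in DMEM with medium conditioned by EO771 mouse mammary tumour cells and tumour lysate (tumour). There were 3 wild-type control replicates on 4 arrays, 3 wild-type tumour replicates on 4 arrays, 3 transgenic control replicates on 3 arrays, and 2 transgenic tumour replicates (numbers 2 and 3) on 3 arrays. Transgenic tumour replicate 1 was not analysed here. For group means and SDs, the repeat arrays of replicate 3 were averaged with the first and counted once. The main fits used all 14 arrays, with repeat arrays of a replicate treated as correlated (0.0615). At so low a correlation a repeat array counted almost as a further replicate, so the SEs and p-values may be too small. The design calls the replicates biological, and whether each is 1 mouse is not stated.

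IL-10 is a cytokine that limits inflammation. Macrophages both make it and respond to it. It binds a receptor of 2 chains: IL-10RA binds the cytokine and carries the docking sites for STAT3, while IL-10RB is shared with the receptors for IL-22, IL-26 and type III interferons. The kinases JAK1 and TYK2 sit on the chains, and STAT3 then induces genes such as Socs3 and restrains the genes of many inflammatory cytokines and of antigen presentation. IL-19 belongs to the same cytokine family but signals through IL-20RA and IL-20RB, and its gene lies next to Il10 on mouse chromosome 1, in the order Fcmr, Il24, Il20, Il19, Il10, Mapkapk2.

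Of the 4 genes, 1 (Il19) had an entry in the table of RefSeq promoters used here. Its 250 bases before the start of transcription are shown because Il19 and its neighbour Il10 were high in the same group. The stretch is chr1:130940116-130940365 of GRCm38.p6, read 5′ to 3′ on the minus strand, with motif matches in capitals.

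Il19: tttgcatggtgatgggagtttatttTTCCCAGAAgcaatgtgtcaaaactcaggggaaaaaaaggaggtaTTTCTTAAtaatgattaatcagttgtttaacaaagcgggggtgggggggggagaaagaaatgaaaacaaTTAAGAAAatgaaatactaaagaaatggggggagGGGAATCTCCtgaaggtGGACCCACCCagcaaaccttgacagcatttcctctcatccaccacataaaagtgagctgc

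Both strands were searched for 6 motifs, and the capitals mark 45 bases. The STAT motif TTCNNNGAA matched once, at −225 from the start, and 7.02% of 32851 promoters of the same length hold it. The NF-kB motif matched at −77 and −60 (45.8% of promoters), and the C/EBP motif TTNNGNAA at −180 and −111 (36.8%). The letters of the TFEB E-box CACGTG (6.02% of promoters), the AP-1 motif TGANTCA (6.75%) and the cyclic AMP element TGACGTCA (1.55%) are not in this window. No 2 of the matches overlap.

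Il10, the gene of the cytokine itself, was high in 1 of the 4 groups. Levels are log2 values relative to the 75th percentile of an array's signals, which is 0 on this scale. Il10 has 1 probe (A_51_P430766, NM_010548), printed at 10 spots on each array, of which 9 or 10 were usable. It was well above background on all 14 arrays. In wild-type control cells its level was −0.31, 0.04 and 0.08 in replicates 1, 2 and 3, with 0.14 on the repeat array of replicate 3. With tumour material the wild-type replicates reached 3.08, 3.08 and 3.41, with 3.50 on the repeat array. All wild-type tumour values thus lay above all others, and the lowest of them stood more than 2 log2 units above the highest value of any other group. Transgenic control cells were at −0.76, −0.16 and −0.46. Transgenic tumour cells were at 0.40 in replicate 2 and at 0.22 and −0.29 on both arrays of replicate 3. The repeat array of that replicate fell among the control values, while its first array did not.

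The group means of Il10 were 3.20 ± 0.22 (SD, n = 3) in wild-type tumour, 0.18 ± 0.31 (n = 2) in transgenic tumour, −0.05 ± 0.22 (n = 3) in wild-type control and −0.46 ± 0.30 (n = 3) in transgenic control cells. In that order, transgenic tumour overlapped wild-type control, and wild-type control overlapped transgenic control. In wild-type cells tumour material was associated with an Il10 difference of 3.28 (SE 0.18, 95% interval 2.87 to 3.68), a 9.69-fold higher signal. In transgenic cells the difference was 0.46 (SE 0.24, interval −0.07 to 0.98), or 1.37-fold. It was 0.77 when the repeat arrays were left out, and 0.79 without transgenic tumour replicate 3. With tumour material, transgenic cells were lower than wild-type cells by a difference of −3.28 (SE 0.24, interval −3.80 to −2.76), 9.70-fold. In control medium the genotypes differed by −0.46 (SE 0.20, interval −0.89 to −0.02). The transgenic response minus the wild-type response was −2.82 (SE 0.30).

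The Il10 wild-type response was similar on both slides, which do not hold independent replicates. The arrays sit on 2 slides, and slide 1 holds all first arrays of the wild-type groups together with transgenic control replicates 1 and 2. On slide 2 each wild-type group is a single array, the repeat of a replicate whose first array is on slide 1. The wild-type response was 3.25 within slide 1 and 3.36 within slide 2. All transgenic tumour arrays are on slide 2, where the difference between genotypes with tumour material was −3.32. That value rests on a single wild-type tumour array and cannot be compared between slides. In bulk RNA, fewer cells that make a transcript and less of it per cell cannot be told apart.

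Il19, whose product has no role in the IL-10 receptor complex, was measured in the same single group. Both of its probes (A_55_P2001489 and A_55_P2128144, both for NM_001009940) were well above background on 4 of 4 wild-type tumour arrays and on 0 of the 10 other arrays. The brighter probe stood at 0.76, 0.77 and 1.24 in wild-type tumour replicates 1, 2 and 3, with 1.12 on the repeat array. The dimmer probe read 0.57, 0.38 and 0.84, with 0.90 on the repeat array. The mean over replicates was 0.90 ± 0.24 (SD, n = 3) by the brighter and 0.61 ± 0.25 (n = 3) by the dimmer probe.

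The other 3 groups give only a limit for Il19. Against them the wild-type tumour signal was at least 13.7-fold higher than in wild-type control and at least 15.4-fold higher than in transgenic tumour cells. The second probe gave at least 11.2-fold and at least 12.5-fold. For each bound, the dim side is taken, array by array, as the lowest signal that still counts as detected there, or as what the probe itself read if that was more; means over replicates are then compared. No fold is given for Il19 between wild-type and transgenic control cells or within transgenic cells, since both sides are below background. Its fitted differences of 5.24 (SE 0.39) and −4.96 (SE 0.50) rest on readings below background on 1 side. With another background correction (normexp) they were 2.02 and −1.97. Within slides the fitted wild-type response was 5.41 on slide 1 and 4.72 on slide 2, and the genotype difference with tumour material was −4.84 on slide 2. Each wild-type group on slide 2 is a single repeat array.

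**Figure D1:**
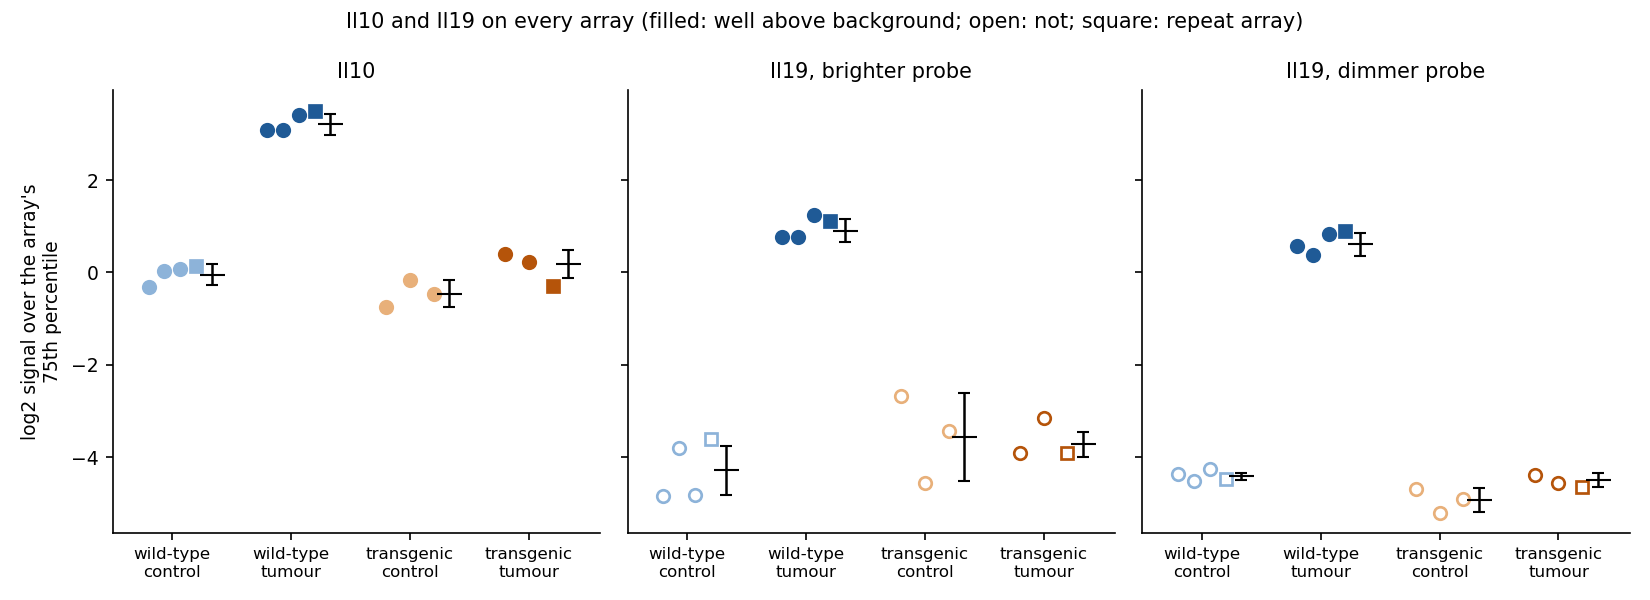
Level of Il10 (left) and of both Il19 probes (middle and right) on each of 14 arrays, in log2 units relative to that array's 75th percentile of signal, by group. Filled symbols are well above background and open ones are not, squares are repeat arrays, and the bars are the mean ± SD over replicates (n = 3, 3, 3 and 2); both genes stand apart in wild-type tumour cells, and Il19 is open in all other groups.

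The place of Il10 among all genes restates the levels that it was selected on and is given only as a description. By size of the fitted wild-type response it ranked 141 from the top of 15834 genes, and by the genotype difference with tumour material it ranked 31 from the bottom. Il19 is given no rank, since its values outside wild-type tumour cells are below background. Among the 141 genes that responded in wild-type cells at least as much as Il10, the median response was 4.19 in wild-type and 4.08 in transgenic cells. Of these, 7 including Il10 had a transgenic response at or below that of Il10. The others were Il19 (below background in both transgenic groups), the gap junction gene Gja1, the myeloid receptor gene Cd300e, Ascl2, Gipr and 1 unnamed transcript, listed after their values were seen.

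**Figure D2:**
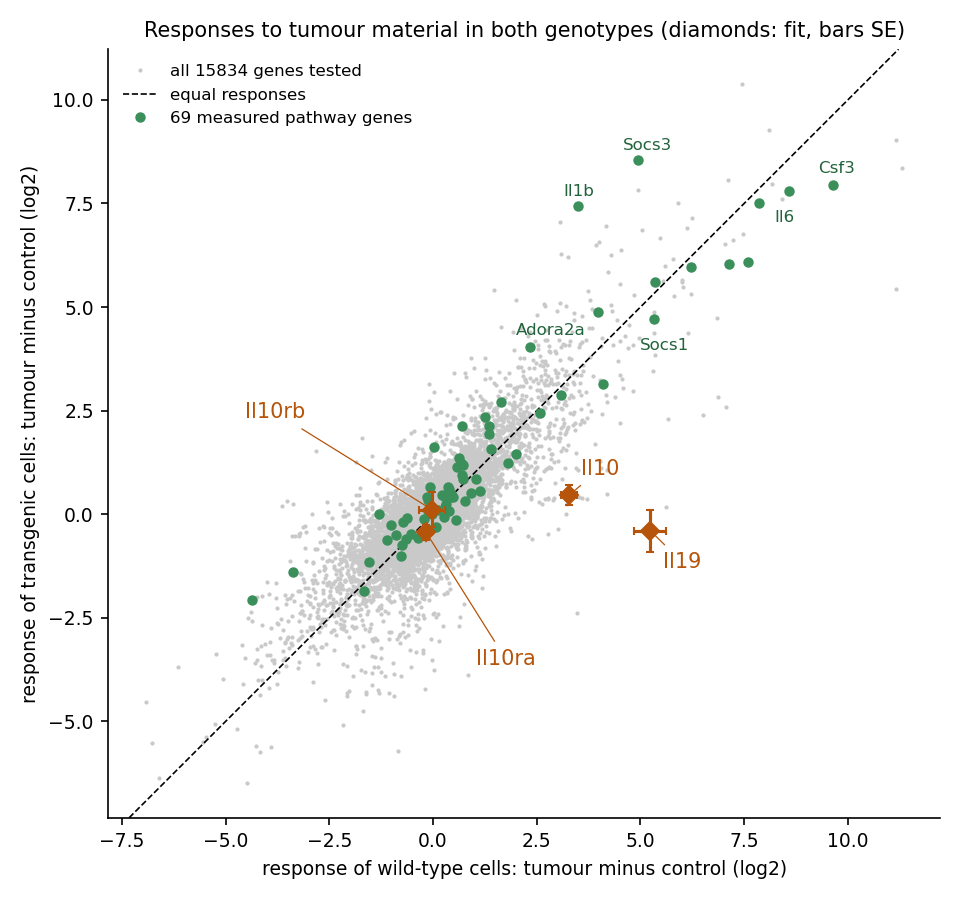
Fitted response to tumour material (tumour minus control, log2) in wild-type cells (horizontal) and transgenic cells (vertical) for all 15834 genes (grey), 69 measured genes of the IL-10 pathway lists (green) and the 4 genes described here (diamonds, bars are SE). Il10 and Il19 lie near 0 on the vertical axis at 3.28 and 5.24 on the horizontal, far below the dashed line of equal responses, where Il6 and Csf3 lie closer to it; the position of Il19 on the vertical axis comes from readings below background.

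Il10ra, the chain that binds IL-10, was well above background on all 14 arrays and ran from 3.91 to 5.14 over them. Its 1 probe (A_51_P235984, NM_008348) read 4.72, 4.77 and 4.80 in wild-type control replicates, with 4.65 on the repeat array. Wild-type tumour replicates read 4.63, 4.58 and 4.56, with 4.50 on the repeat array. These groups came close without overlapping. Transgenic control replicates were at 5.14, 4.48 and 4.30. Transgenic tumour replicates were at 4.10 and 4.14, with 3.91 on the repeat array of the latter. Transgenic control replicate 1 was the highest of all arrays, and the transgenic tumour arrays were the 3 lowest.

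By group mean, Il10ra ran from 4.74 ± 0.03 (SD, n = 3) in wild-type control through 4.64 ± 0.44 (n = 3) in transgenic control and 4.58 ± 0.05 (n = 3) in wild-type tumour to 4.07 ± 0.05 (n = 2) in transgenic tumour cells. Transgenic control overlapped both wild-type groups, its neighbours in that order. The fitted response was −0.17 (SE 0.14) in wild-type and −0.44 (SE 0.19) in transgenic cells. Between genotypes the difference was −0.07 (SE 0.15) in control medium and −0.34 (SE 0.18) with tumour material. That last value turns to 0.04 when the repeat arrays are left out, and is −0.43 within slide 2. Without transgenic control replicate 1 it was −0.42.

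Il10rb, the shared chain, gave no ordering of the groups. Its 1 probe (A_55_P2181109, NM_008349) was well above background on all 14 arrays. It read 4.27, 4.29 and 4.27 in wild-type control replicates but 3.48 on the repeat array of the third. The wild-type tumour replicates read 4.10, 3.77 and 4.16, with 4.21 on the repeat array. The 2 arrays of wild-type control replicate 3 thus differed by −0.78, more than any of the group means of Il10rb did. Transgenic control replicates were at 3.38, 5.13 and 3.96, and transgenic tumour replicates at 3.77 and 4.12, with 4.34 on the repeat array.

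The group means of Il10rb were 4.16 ± 0.89 (SD, n = 3) in transgenic control, 4.14 ± 0.23 (n = 3) in wild-type control, 4.02 ± 0.22 (n = 3) in wild-type tumour and 4.0 ± 0.33 (n = 2) in transgenic tumour cells. All 4 overlapped. The response was −0.02 (SE 0.32, interval −0.72 to 0.67) in wild-type and 0.11 (SE 0.41, interval −0.80 to 1.02) in transgenic cells. The genotype difference was 0.10 (SE 0.34) in control medium and 0.24 (SE 0.41, interval −0.66 to 1.13) with tumour material. These intervals leave room for changes of up to about 1 log2 unit in either direction. Within slide 2, where the low repeat array is the only wild-type control, the wild-type response was 0.73, and within slide 1 it was −0.26. The genotype difference with tumour material was −0.21 within slide 2.

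**Figure D3:**
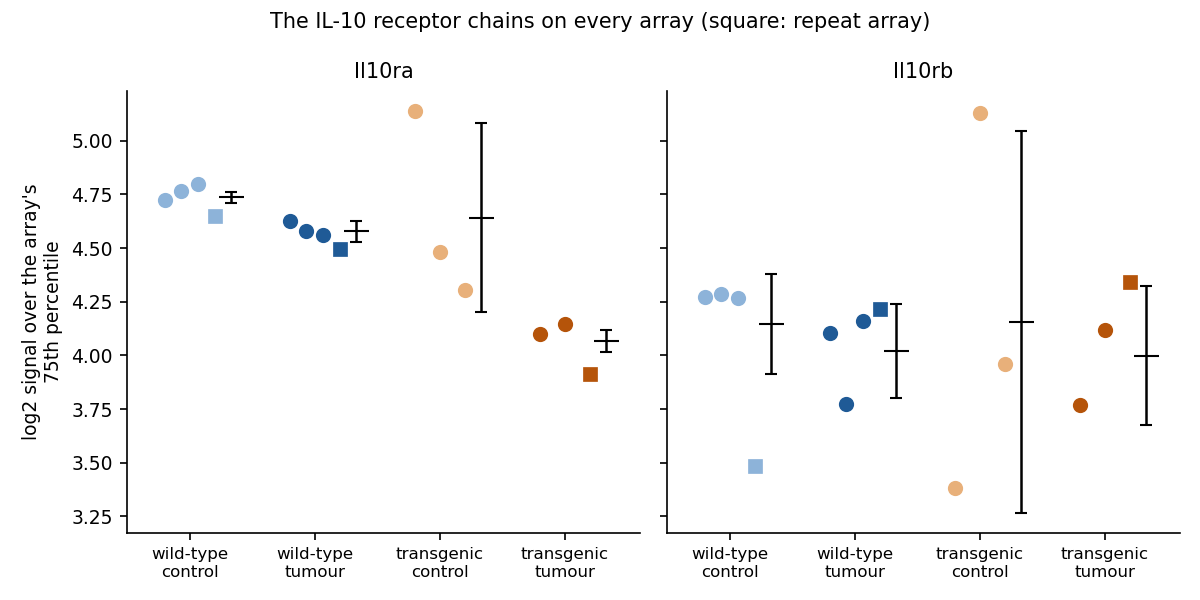
Level of Il10ra (left) and Il10rb (right) on each of 14 arrays, in log2 units relative to that array's 75th percentile of signal, by group; squares are repeat arrays and bars the mean ± SD over replicates (n = 3, 3, 3 and 2). Il10ra is lowest in transgenic tumour cells, and the groups of Il10rb overlap, with transgenic control spread from 3.38 to 5.13.

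How often replicates of both groups fall apart in this dataset sets the scale for these pictures. In the wild-type response the groups did not overlap for Il10 and Il19 (higher) and for Il10ra (lower), where 32.4% of all genes were separated upward and 25.7% downward. In the transgenic response this held for Il10 (higher) and Il10ra (lower), with 29.7% and 21% of all genes. Between genotypes in control medium it held for none of the 4, with 8.9% of all genes separated upward and 12.5% downward. With tumour material it held for Il10, Il19 and Il10ra, all lower in transgenic cells, with 22.1% of genes separated upward and 25.9% downward. Il19 is counted here by its brighter probe. Its dimmer probe also did not overlap in the transgenic response (higher) and between genotypes in control medium (lower). Both sides of those comparisons are below background. The rule that chose the genes used all these comparisons, so nothing is read from the counts.

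Other facts of the arrays touch these results. The share of spots detected above background was 35.5% to 40.2% on each array, with a 75th percentile of 83.0 to 142 in signal units, and 0 spots were saturated. Transgenic control replicate 1 stood apart, and correlations within its group ran from 0.957 to 0.981 against 0.979 to 0.994 in the other groups. The repeat array of transgenic tumour replicate 3 had the most outlier spots, 270 against 166 to 215 on the others, and the scanner software's strongest trend correction (root mean square 0.331, with 0.253 and 0.259 on transgenic control arrays 2 and 1 and 0.0964 to 0.126 elsewhere). It is 1 of the 3 repeat arrays whose removal moves the Il10 transgenic response to 0.77 and the Il10ra genotype difference with tumour material to 0.04. Of macrophage markers, 9 of 10 were above background on every array; the exception was the probe of Lyz2, the gene that drives LysM-Cre, which was above it on 4 of the 8 wild-type and 0 of the 6 transgenic arrays. The Tfeb probe read 0.31 higher in transgenic control cells (SE 0.13, adjusted p = 0.167) and 0.69 higher with tumour material (SE 0.16, adjusted p = 0.0267, a call lost without any of 6 replicates, with adjusted p up to 0.213). Whether that probe also detects transgene RNA was not tested.

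A few marker genes of other cells were high in the same group as Il10 and Il19. Of 6 fibroblast markers, 5 were measured: 2 rose with tumour material in wild-type cells, 3 did not pass, and the median difference was −0.11. Their summed level (in multiples of the 75th percentile) was 1.41 to 23.7 in wild-type control, 32.5 to 43.7 in wild-type tumour, 0.946 to 9.92 in transgenic control and 6.59 to 9.34 in transgenic tumour arrays. The 2 that rose were Dcn, by 3.22 (SE 0.94, adjusted p = 0.0174, or 0.0533 without wild-type tumour replicate 3), and Lum; both encode matrix proteoglycans. Lum was at least 36.0-fold higher with tumour material in wild-type cells and at least 2.75-fold higher in transgenic cells. The transgenic response of Lum minus the wild-type one was −4.48 (SE 0.21, limma with Benjamini-Hochberg adjustment, adjusted p = 1.29e-06), a size that rests on control readings below background. With tumour material 1 of the 5, Lum, was lower in transgenic cells and 4 did not pass. Pdgfra was below background on all arrays. The part of such cells in the Il10 and Il19 differences was not tested.

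Of 5 dendritic cell markers 3 were below background on all arrays and 2 were measured. Of these, Ccr7 rose by 1.67 (SE 0.30, adjusted p = 0.000915) in wild-type cells, and Siglech was at 0.06 (SE 0.16) and did not pass. The summed level of the 5 was 5.11 to 5.54 in wild-type control, 7.16 to 9.29 in wild-type tumour, 3.06 to 4.27 in transgenic control and 5.18 to 6.61 in transgenic tumour arrays. Neither measured marker passed between genotypes with tumour material. The part of dendritic cells in the Il10 and Il19 differences was not tested. Sums of T and NK cell, B cell and mast cell markers were not highest there. The 6 T and NK cell markers summed to 6.25 to 7.33 in wild-type control and 3.85 to 6.73 in wild-type tumour arrays, with 4 of them below background in all groups. The 5 B cell markers summed to 2.70 to 3.78 and 0.627 to 1.06, and the 5 mast cell and basophil markers to 1.21 to 1.71 and 1.47 to 2.81. In transgenic tumour arrays these sums were 7.20 to 7.60, 0.881 to 1.10 and 6.56 to 6.98. All 6 epithelial markers, which EO771 cells in the lysate might bring, were below background on all 14 arrays. The 8 neutrophil markers on the array summed to 230 to 251 in wild-type control, 53.7 to 91.9 in wild-type tumour, 178 to 576 in transgenic control and 29.8 to 35.4 in transgenic tumour arrays.

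The rest of the IL-10 family was nearly silent on these arrays. Of 5 other family ligands with a probe, Il20, Il24 and Iltifb were below background on all arrays and Il22 was above it on 1 wild-type tumour array. The type III interferon gene Ifnl3 was the exception, with a wild-type response of −1.12 (SE 0.29, adjusted p = 0.00937) that is lost without replicate 3 of either wild-type group (adjusted p up to 0.148). Il24 and Il20, the genes next to Il19 on its far side, thus did not show the signal that Il19 and Il10 showed. On the near side of Il10, Mapkapk2, which encodes a kinase acting in cytokine mRNA control, gave 0.12 (SE 0.20) and 0.10 (SE 0.26) in wild-type and transgenic responses. Dyrk3 gave −1.04 (SE 0.45) in wild-type cells. None of these 3 values passed. Eif2d, the next gene, rose by 0.29 (SE 0.10, adjusted p = 0.03) and 0.42 (SE 0.12, adjusted p = 0.0291), calls lost without 5 and 3 single replicates (adjusted p up to 0.155 and 0.163).

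A test was made for 86 genes placed in 6 lists around IL-10, none of them 1 of the 4 genes above; 85 had a probe and 69 were measured. In wild-type cells 38 of 69 were higher with tumour material and 13 lower (adjusted p under 0.05), against 23.2% and 16.8% of all genes. In transgenic cells the counts were 34 and 5, against 15.2% and 10.2%. The median difference was 0.49 and 0.57, against 0.05 and 0.06 over all genes. In these responses 4 and 6 of the 69 were below background on 1 side, where the filter can set the direction. Between genotypes in control medium 1 was higher in transgenic cells and 21 lower, against 3.63% and 5.32% of all genes, and their median was −0.28. With tumour material 1 was higher and 7 lower, against 2.01% and 2.56%. The transgenic response was larger than the wild-type one in 5 and smaller in 1, against 1.02% and 0.928%. Other scalings move the split of calls: of all genes called in the wild-type response 57.9% were higher, or 48.6% under quantile normalization, and of those called between genotypes in control medium 40.5% were higher, or 54.3% after normexp. Between responses, normexp gave 4 pathway genes larger and 4 smaller in transgenic cells, in place of 5 and 1.

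The counts between genotypes depend on single libraries. Those 22 calls in control medium became 12 without wild-type control replicate 3. The 8 calls with tumour material became 2 without wild-type tumour replicate 3, 3 without transgenic tumour replicate 3 and 16 without transgenic control replicate 1. The 6 calls between responses became 1, 0 and 19 in the same fits. Within slide 2 alone, where transgenic tumour arrays are the only replicated group, 0 genes were called in any of these 3 comparisons.

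The class II cytokine receptors share their fold with the IL-10 receptor. Of 10 such genes, 7 were measured. In wild-type cells 3 rose and 1 fell, against 23.2% and 16.8% of all genes. In transgenic cells 4 rose and 1 fell, against 15.2% and 10.2%. Il20rb, a chain of the IL-19 receptor, was measured at 0.43 (SE 0.22) and 0.48 (SE 0.29), and neither value passed (adjusted p = 0.139 and 0.26). Its partner Il20ra was below background on all 14 arrays, as were Il22ra1 and Il22ra2. Ifnar2, Ifnar1 and Ifngr2, chains of interferon receptors, lie beside Il10rb on chromosome 16. Ifnar2 rose by 0.69 (SE 0.11, adjusted p = 0.000397) in wild-type and by 0.94 (SE 0.14, adjusted p = 0.000546) in transgenic cells. Ifngr2 rose by 0.39 (SE 0.14, adjusted p = 0.0436) and 0.60 (SE 0.18, adjusted p = 0.0323). Both calls were lost under quantile normalization and without single replicates, 5 and 3 of them (adjusted p up to 0.212 and 0.295). Ifngr1 fell by 0.75 in both genotypes. Its transgenic call is lost without replicate 3 of wild-type tumour, transgenic control or transgenic tumour (adjusted p up to 0.193). In control medium 3 of the 7 were lower in transgenic cells and 0 higher, against 5.32% and 3.63% of all genes. These were F3 (described next), Ifnlr1 by −1.87 and Ifnar1 by −0.56 (limma, adjusted p = 0.00554, 0.0339 and 0.0203). The Ifnlr1 and Ifnar1 calls were lost without 5 and 2 single replicates, and the F3 call after normexp.

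F3, the tissue factor gene, belongs to the same receptor class and differed by genotype. It stood between −1.80 and −1.50 in wild-type control, −0.15 and 0.54 in wild-type tumour, and −1.50 and −1.44 in transgenic tumour replicates, and was below background on all transgenic control arrays. F3 rose by 1.99 (SE 0.22, adjusted p = 2.95e-05) in wild-type cells and at least 2.95-fold (adjusted p = 0.00367) in transgenic cells. After normexp the transgenic call was lost (adjusted p = 0.119), and the fitted difference was as low as 0.31 over the processing alternatives. With tumour material it was lower in transgenic cells by a difference of −1.89 (SE 0.29, adjusted p = 0.00335), a call lost without replicate 3 of either tumour group (adjusted p up to 0.128). Both responses differed by −0.55 (SE 0.37), which did not pass.

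Downstream of the receptor, 10 of 12 signal transduction genes were measured. In wild-type cells 4 rose and 4 fell, against 23.2% and 16.8% of all genes. In transgenic cells 4 rose and 0 fell, against 15.2% and 10.2%. Jak1, the kinase on IL-10RA, rose by 0.26 (SE 0.10, adjusted p = 0.0465) and 0.43 (SE 0.12, adjusted p = 0.0255). Both calls were lost under quantile normalization and without single replicates, 7 and 3 of them (adjusted p up to 0.361 and 0.22). Tyk2, the kinase on IL-10RB, was at −0.12 (SE 0.22) and 0.07 (SE 0.28) and did not pass. Stat3 stood at 6.43 to 6.72 in wild-type control, 6.91 to 6.96 in wild-type tumour, 5.75 to 6.35 in transgenic control and 6.58 to 6.80 in transgenic tumour replicates. Its response was 0.36 (SE 0.15) in wild-type cells, which did not pass, and 0.67 (SE 0.20, adjusted p = 0.0298) in transgenic cells. The difference between both Stat3 responses did not pass. In control medium Stat3 was lower in transgenic cells by −0.61 (SE 0.17, adjusted p = 0.0406), a call lost without any of 8 replicates (adjusted p up to 0.267). Both Stat3 calls were lost under quantile normalization, and the response call also without any of 4 replicates (adjusted p up to 0.255).

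The feedback inhibitors rose in both genotypes. Socs3, a STAT3 target that blocks the receptors of the IL-6 family but not that of IL-10, stood at 2.29 to 3.77 in wild-type control, 7.43 to 8.82 in wild-type tumour, −1.73 to −1.09 in transgenic control and 7.10 to 7.23 in transgenic tumour replicates. The transgenic control replicates were the lowest and both tumour groups the highest, with no overlap between tumour groups either. Socs3 rose by 4.93 (SE 0.34, adjusted p = 7.15e-07) in wild-type and by 8.55 (SE 0.45, adjusted p = 1.97e-07) in transgenic cells. The difference between responses was 3.62 (SE 0.57, adjusted p = 0.00665), lost without replicate 3 of either tumour group (adjusted p up to 0.13). That call was also lost after normexp and with repeat arrays left out. Socs1, which inhibits JAK kinases, rose by 5.33 (SE 0.10) and 4.72 (SE 0.13). With tumour material it was lower in transgenic cells by −0.60 (SE 0.13, adjusted p = 0.021), a call lost without wild-type tumour replicates 1 or 3 or transgenic tumour replicate 3 (adjusted p up to 0.283). Stat5a and Ptpn1, a phosphatase of JAK kinases, fell in wild-type cells by 0.73 (SE 0.14) and 0.88 (SE 0.16). Neither passed in transgenic cells, and the difference between responses did not pass for either.

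Genes that IL-10 is known to induce in macrophages rose with tumour material in both genotypes. Of 13 measured (of 15), 11 rose and 1 fell in wild-type cells, against 23.2% and 16.8% of all genes. In transgenic cells 9 rose and 0 fell, against 15.2% and 10.2%, and the medians were 1.14 and 1.36. Il1rn, the IL-1 receptor antagonist, rose by 5.35 (SE 0.33) and 5.61 (SE 0.43). Hmox1, the haem-degrading oxygenase, rose by 2.57 (SE 0.11) and 2.43 (SE 0.14), and the IL-4 receptor chain Il4ra by 1.64 (SE 0.22) and 2.70 (SE 0.29).

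In control medium 8 of the 13 were lower in transgenic cells and 0 higher, against 5.32% and 3.63% of all genes. Their median was −0.77 against −0.03 over all genes. Socs3 was lower by −4.72 (SE 0.37, adjusted p = 2.96e-05), the repressor Nfil3 by −1.67 (SE 0.21, adjusted p = 0.000713), Il4ra by −1.61 (SE 0.24, adjusted p = 0.00157) and Bcl3 by −1.03 (SE 0.17, adjusted p = 0.00338). Leaving out wild-type control replicate 3 ends 3 of the 8 calls, those of Bcl3 (adjusted p = 0.0562), Etv3 and Cebpd. The Etv3 and Cebpd calls are also lost without other replicates, 7 and 10 in all (adjusted p up to 0.219 and 0.226). With tumour material 1 of the 13 was lower in transgenic cells and 0 higher, against 2.56% and 2.01% of all genes. That gene was Hmox1, lower by −0.99 (SE 0.14, adjusted p = 0.00165), or adjusted p = 0.0505 without wild-type tumour replicate 3. Cd163, the haemoglobin scavenger receptor that IL-10 raises in macrophages, was below background on all arrays.

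Genes that IL-10 is known to restrain rose in both genotypes as well. Of 15 measured (of 18), 11 rose and 3 fell in wild-type cells, against 23.2% and 16.8% of all genes. In transgenic cells 11 rose and 1 fell, against 15.2% and 10.2%, and the medians were 3.50 and 3.15. In these responses 4 and 5 of the 15 were below background on all control arrays. They passed the filter only through a tumour group, so their rise was set by the filter and is not read as a result. The median was the same with genes dim in 1 group set at their bound. Csf3, which encodes G-CSF, rose at least 251-fold and at least 100-fold, and Il1a at least 58.8-fold and at least 23.5-fold. Il6 rose by 8.59 (SE 0.15) in wild-type cells, with 2 of 4 control arrays above background, and at least 101-fold in transgenic cells. The nitric oxide synthase Nos2 rose by 7.86 (SE 0.30) and 7.50 (SE 0.39). H2-Eb1 and H2-Aa, which encode chains of MHC class II, fell in wild-type cells with differences of −4.37 (SE 0.59) and −3.37 (SE 0.68). In transgenic cells they were at −2.07 (SE 0.77) and −1.40 (SE 0.88), which did not pass. The difference between responses did not pass for either gene.

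With tumour material 4 of these 15 were lower in transgenic cells and 0 higher, alongside Il10, against 2.56% and 2.01% of all genes. Il6 was lower by −2.71 (SE 0.19, adjusted p = 3.93e-05), Csf3 by −1.79 (SE 0.22, adjusted p = 0.000711), Ptgs2 by −1.73 (SE 0.25, adjusted p = 0.00213) and the chemokine Cxcl1 by −1.50 (SE 0.28, adjusted p = 0.0102). The Il6 and Csf3 calls held without any 1 replicate, that of Csf3 with an adjusted p of up to 0.0496. With repeat arrays left out, the Csf3, Ptgs2 and Cxcl1 calls were lost. The Ptgs2 and Cxcl1 calls are lost without replicate 3 of either tumour group (adjusted p up to 0.094 and 0.29). In control medium 4 were lower and 0 higher, against 5.32% and 3.63% of all genes. Among them were Il1b by −4.60 (SE 0.32, adjusted p = 1.77e-05), with 1 of 3 transgenic arrays above background, and Il6 at least 1.68-fold. Ptgs2 is counted there too, although it was below background on all arrays of both groups. Il12a and Il23a, subunits of cytokines under IL-10 control, were below background on all arrays, and Il12b was above it on 2 wild-type tumour arrays.

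Regulators of Il10 transcription were followed as the last list, with 24 of 26 measured. In wild-type cells 10 rose and 3 fell, against 23.2% and 16.8% of all genes. In transgenic cells 7 rose and 3 fell, against 15.2% and 10.2%, and the medians were 0.32 and 0.33. The adenosine receptor genes Adora2b and Adora2a rose by 3.97 (SE 0.24) and 2.34 (SE 0.19) in wild-type and by 4.89 (SE 0.32) and 4.03 (SE 0.25) in transgenic cells. Batf, a transcription factor gene of the AP-1 family, rose by 1.35 (SE 0.11) and 2.13 (SE 0.14). The falls in both genotypes were those of Tfeb, Rps6ka5 and Mapk14. Tfeb gave −1.55 in wild-type (limma, adjusted p = 1.69e-06) and −1.16 in transgenic cells (adjusted p = 0.000243), and the transgenic call was lost after normexp. Maf, which binds the Il10 promoter in macrophages and was picked out after its values were seen, rose by 0.77 (SE 0.13, adjusted p = 0.000615) in wild-type cells and was at 0.33 (SE 0.17) in transgenic cells, which did not pass. Both Maf responses differed by −0.44 (SE 0.21), which did not pass either.

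With tumour material 0 of the 24 were lower in transgenic cells and 1 was higher, Tfeb itself. These counts are near the 2.56% and 2.01% of all genes and are not read as a result about the regulators. In control medium 4 were lower, against 5.32% of all genes: Adora2a by −1.78 (SE 0.21), Ptger4 by −1.76 (SE 0.14), Adora2b by −1.28 (SE 0.26) and Batf by −0.97 (SE 0.12). The kinase gene Map3k8 was higher by 0.70 (SE 0.13), 1 of the 24 against 3.63% of all genes. Leaving out wild-type control replicate 3 ends the Adora2b and Map3k8 calls (adjusted p = 0.112 and 0.0868). The transgenic response exceeded the wild-type one in Adora2a and in Ptger4, a prostaglandin E2 receptor gene, and was smaller in 0 of the 24. Over all genes the shares were 1.02% and 0.928%. The comparisons share groups of arrays, so their counts are not independent.

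Genes with group means like those of the 4 genes were sought by 1 measure. The likeness of each gene to a member was the root mean square difference between their 4 group means, each centred on its own mean, over 10381 named genes measured in all 4 groups. The nearest to Il10 were Rapgef5, a guanine nucleotide exchange factor gene (0.339), Bnip3, which encodes a mitochondrial protein of mitophagy (0.407), Ankrd37 (0.431) and the carbonyl reductase gene Cbr2 (0.462). All 4 had their highest mean in wild-type tumour cells. For Il10ra the nearest genes, Wdr41, Ppil2, Slc35c2 and Ankrd23, lay at 0.038 to 0.0431, and for Il10rb Fam168a, Urod, Fmc1 and Prpf19 at 0.00726 to 0.0105. Il19 was below background in 3 groups and has no such list.

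**Figure D4:**
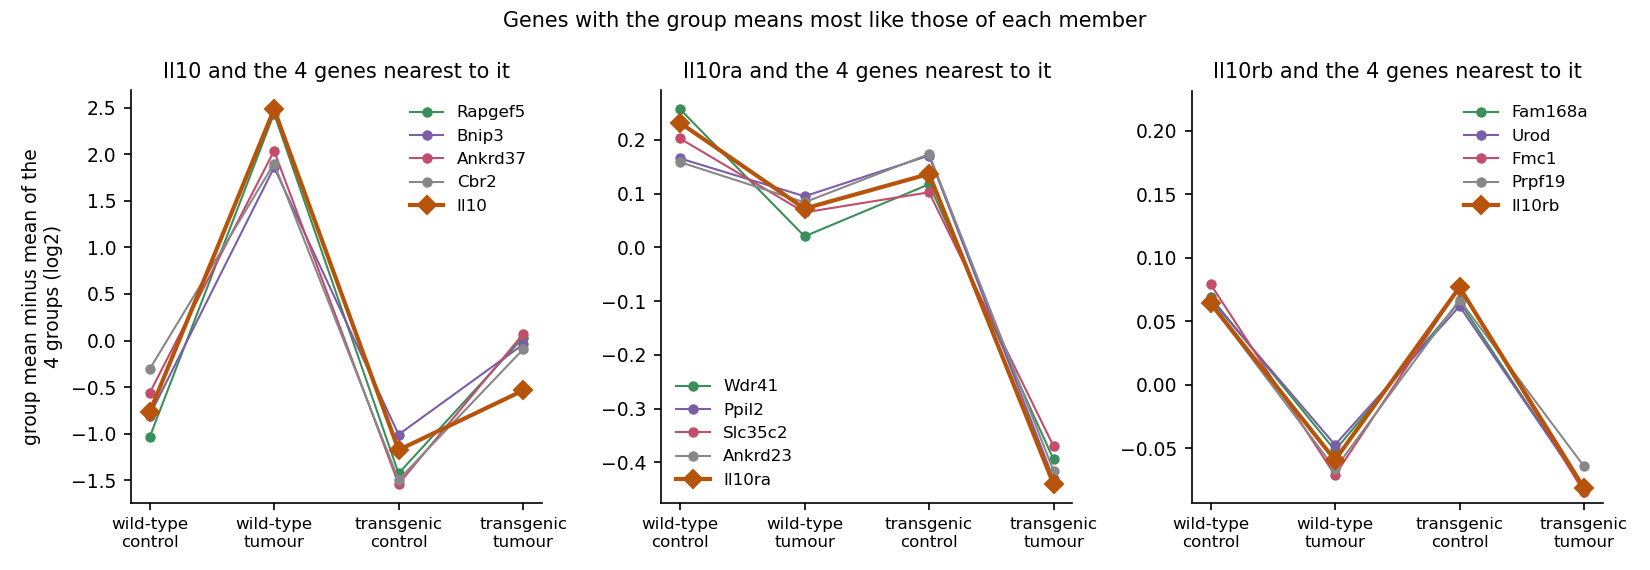
Group means of Il10, Il10ra and Il10rb (thick lines) and of the 4 genes nearest to each, after subtracting each gene's mean over the 4 groups (log2, vertical axes of different range). Il10 and its nearest genes peak in wild-type tumour cells, where Il10 reaches 3.20 before centring, and Il10 is the lowest of them in transgenic tumour cells.

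Of the neighbours of Il10ra on chromosome 9, 3 were measured, and 2 passed between genotypes. Fxyd2 and Fxyd6, which encode regulators of the sodium pump and lie after Tmprss13, were lower in transgenic cells in both media. Fxyd2 was lower by −1.97 (SE 0.19, adjusted p = 0.000123) in control medium and by −2.40 (SE 0.23, adjusted p = 0.000163) with tumour material. Fxyd6 was at least 2.75-fold lower (adjusted p = 0.000363) and at least 2.07-fold lower (adjusted p = 0.000488). The Fxyd6 call with tumour material was lost with repeat arrays left out, and its fitted difference ran from −3.11 to −0.67 over the processing alternatives. Fxyd2 also fell with tumour material, by −1.72 in wild-type (adjusted p = 1.40e-05) and −2.14 in transgenic cells (adjusted p = 4.49e-05). The neighbours Scn4b and Tmprss13 were below background on all arrays, and Tmprss4 did not pass in any comparison. BC049352, which lies between Tmprss4 and Il10ra, had no probe assigned to it.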

How the data were processed

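RNA of 11 replicates was hybridised to 14 one-colour Agilent arrays. Intensity is the processed signal that the authors deposited per array (Agilent Feature Extraction 10.7.3.1, per the submitters' processing notes), background-corrected by the scanner software. The authors' deposited value table, whose log2 values follow the scanner log2 values, served as an alternative. Outlier spots were dropped, spots of a probe averaged, and log2 signal scaled to each array's 75th percentile. A probe was kept if every array of some group detected it well above background (20208), with the brightest probe per gene (15834 genes). limma 3.58.1 in R 4.3.3 fitted 4 group means and slide, and treated repeat arrays of a replicate as correlated (0.0615). p-values were adjusted by Benjamini-Hochberg over all genes at 0.05. P-values judge a group difference against the spread between these arrays, repeat arrays included. Same-numbered samples did not deviate together. The number of arrays limits the precision.

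Members and lists were chosen with earlier results of these data known. Any gene of the ligand, receptor and signalling lists could be named, as could the 3 neighbours on each side and the 4 genes nearest in group means; from the other lists, up to 4 rises and 4 falls with the largest differences per comparison. Maf, Cd163, Il12a, Il12b and Il23a fall outside this rule and were chosen after their values were seen, as were the 6 genes set beside Il10 by their responses. Alternatives were quantile normalization, normexp (offset 50; planned on mean signals, run on median signals), no filter, no slide term, a replicate block, left-out arrays and replicates. The model was tested on simulated data, where the share of false calls exceeded the threshold (8.24% and 8.51%) and most 1.5-fold changes were missed. Of 2-fold changes, 66.4% were recovered in the wild-type response and 45.9% between genotypes with tumour material. A gene that did not pass may therefore still differ.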

Additional observations from a re-analysis of the deposited data

Results flagged for a closer look

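The response to tumour material differed between genotypes, by the test of the difference itself, in 7 genes of the lists. Given as transgenic minus wild-type response (log2, limma with Benjamini-Hochberg adjustment), it was 3.62 for Socs3 (SE 0.57, adjusted p = 0.00665), 3.94 for Il1b (SE 0.49, adjusted p = 0.00209), 1.44 for Nfil3 (SE 0.33, adjusted p = 0.0494), 1.59 for Ptger4 (SE 0.21, adjusted p = 0.00286) and 1.69 for Adora2a (SE 0.32, adjusted p = 0.018). It was −1.70 for Csf3 (SE 0.28, adjusted p = 0.00809) and −4.48 for Lum (SE 0.21, adjusted p = 1.29e-06). Leaving out 1 replicate ended the call for Socs3, Csf3, Ptger4 and Adora2a (without wild-type tumour or transgenic tumour replicate 3, adjusted p up to 0.13, 0.159, 0.0817 and 0.349), for Il1b (without transgenic tumour replicate 3, adjusted p = 0.0603) and for Nfil3 (9 replicates, adjusted p up to 0.389). The Lum call held without any 1 replicate. With repeat arrays left out, the Socs3, Nfil3, Csf3 and Adora2a calls were lost. The Socs3 and Adora2a calls were also lost after normexp, and the Nfil3 call under quantile normalization. Csf3 and Lum were below background in both control groups and Il1b on 2 of 3 transgenic control arrays, so the sizes of these differences are uncertain: over the other processing alternatives Lum ran from −4.74 to −2.84, Csf3 from −1.91 to −1.29 and Il1b from 1.95 to 4.35. Within slide 2 alone all 7 calls were lost.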

How the results depend on the processing

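No difference of the 4 genes was tested, so the values below are shifts larger than the replicate SD; where they moved, the cause was not tested. After normexp the Il10 wild-type response was 2.62, its genotype difference with tumour material −2.69 and its difference of responses −2.40; for Il19 these were 2.02, −1.97 and −1.95, for Il10ra −0.23 and −0.45 in the first pair, and for Il10rb 0.23 in the wild-type response. With repeat arrays left out, Il10 gave 0.77 in the transgenic response, −2.88 with tumour material and −2.48 between responses, Il19 −4.65 and Il10ra 0.042 with tumour material, and Il10rb −0.26 in the wild-type response. Without the arrays of slide column 4 the Il10 transgenic response was 0.77 and the difference of responses −2.49. Without the slide term the genotype difference with tumour material was −4.62 for Il19 and −0.51 for Il10ra. The second Il19 probe gave −5.25 there and −0.53 in control medium, where both sides are below background. The Il10ra wild-type response was −0.32 under quantile normalization and −0.32 in the deposited table. Within slides, the Il10rb wild-type response was −0.26 and 0.73, and with tumour material Il10ra gave −0.43 and Il10rb −0.21 on slide 2.

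Leaving out 1 replicate moved Il10 over 0.27 to 0.79 in the transgenic response, −3.44 to −2.90 with tumour material and −3.02 to −2.47 between responses, and Il19 over −5.24 to −4.78 with tumour material. Il10ra ran over −0.21 to −0.10 in the wild-type response and −0.44 to −0.25 with tumour material, and Il10rb over −0.27 to 0.11 and 0.021 to 0.70. Pathway calls (51, 39, 22, 8 and 6) ran over 12 to 27 between genotypes in control medium, 2 to 16 with tumour material and 0 to 19 between responses. Within slide 2 they were 23 in the wild-type response and 0, 0 and 0 in these 3. With repeat arrays left out they were 2 with tumour material and 2 between responses, and without slide column 4 they were 14 and 13. With the replicate block, the Il10 wild-type response was 3.28 and the genotype difference with tumour material −3.33, and 50, 37, 20, 6 and 6 pathway genes were called. Same-numbered samples correlated from −0.22 to 0.20, so the numbers were not taken as pairs.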
